A study of Homo sapiens with 6 samples.

Results

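BCAM encodes a membrane protein of the immunoglobulin superfamily, the carrier of the Lutheran blood group, which binds laminin. Laminins are the matrix proteins of basement membranes. Of 9 genes selected, BCAM and 8 laminin chain genes, 6 had a row of their own among the 22375 genes measured: BCAM, LAMA1, LAMA4, LAMB1, LAMB2 and LAMC1. LAMA5 and LAMB3 shared the annotation of their transcript cluster with another gene and LAMA3 was not listed, so these 3 genes were not analysed here. A member was a row annotated with exactly 1 gene symbol from the selected names. The names were chosen by gene family and selected on the measured PD 0332991 minus DMSO differences of these same arrays, which were already known. The members' changes are therefore given as a description, without p-values, and nothing is read from their direction.

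The cells were H1299, an established human non-small cell lung carcinoma line that lacks p53 protein. They were kept for 14 days with 500 nM PD 0332991 in DMSO or with DMSO alone, and each treatment had 3 arrays. PD 0332991 (palbociclib) inhibits the kinases CDK4 and CDK6, which phosphorylate the retinoblastoma protein, and the study set treated against vehicle cells to follow reactivation of that protein. Both groups were the same parental line, grown in RPMI medium with serum. Separate cultures behind the replicates are not mentioned in the labels, so the p-values reflect the spread among these arrays alone, which may be technical. In such bulk samples, more RNA per cell and more cells that make the transcript cannot be told apart.

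Each laminin molecule joins an alpha, a beta and a gamma chain. The chains coil together in the endoplasmic reticulum, and the trimer is secreted and polymerises at the cell surface. Integrins, dystroglycan, syndecans and BCAM hold it there, BCAM through trimers that contain the alpha chain encoded by LAMA5. Nidogen, perlecan and agrin tie the laminin network to other matrix proteins.

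The stretches upstream of the annotated start are shown for the receptor gene, for the beta chain genes with the largest changes among the measured members, and for an alpha chain gene that did not pass the call rule. They are 250 bases each, read from RefSeq promoters of GRCh38.p14 on the gene's own strand, 5′ to 3′. Capitals mark matches to the GC box, the letters GGGCGG on either strand, which the SP and KLF families of transcription factors bind. The stretches are chr19:44808809-44809058 on the plus strand for BCAM, and on the minus strand chr3:49133051-49133300 for LAMB2, chr7:108003162-108003411 for LAMB1 and chr6:112254568-112254817 for LAMA4.
BCAM: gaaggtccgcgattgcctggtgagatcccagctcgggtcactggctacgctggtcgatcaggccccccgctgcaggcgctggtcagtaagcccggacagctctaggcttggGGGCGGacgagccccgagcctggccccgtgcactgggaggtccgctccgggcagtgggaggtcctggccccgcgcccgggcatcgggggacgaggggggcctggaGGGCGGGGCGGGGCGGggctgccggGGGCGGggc
LAMB2: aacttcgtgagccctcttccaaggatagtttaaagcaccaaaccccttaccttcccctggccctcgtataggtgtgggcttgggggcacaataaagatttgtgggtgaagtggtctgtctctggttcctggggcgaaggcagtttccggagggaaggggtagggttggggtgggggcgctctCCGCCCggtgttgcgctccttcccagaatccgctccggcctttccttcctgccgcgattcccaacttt
LAMB1: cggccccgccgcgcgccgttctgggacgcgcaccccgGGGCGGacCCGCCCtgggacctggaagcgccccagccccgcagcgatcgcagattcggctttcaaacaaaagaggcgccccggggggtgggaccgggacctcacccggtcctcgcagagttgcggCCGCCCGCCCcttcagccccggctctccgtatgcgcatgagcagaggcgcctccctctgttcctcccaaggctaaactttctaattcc
LAMA4: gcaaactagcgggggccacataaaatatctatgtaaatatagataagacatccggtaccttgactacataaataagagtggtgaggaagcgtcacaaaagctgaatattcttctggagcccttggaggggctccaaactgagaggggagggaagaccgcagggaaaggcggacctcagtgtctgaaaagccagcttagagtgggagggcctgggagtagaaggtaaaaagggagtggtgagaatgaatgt

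The BCAM stretch held 5 GC boxes, 3 of them sharing bases in a single run close to the start. As many GC boxes or more were found in 4.2% of the 27305 promoters searched, while 42.3% held at least 1. The LAMB1 stretch held 4, the LAMB2 stretch held 1, the LAMC1 stretch, which is not printed, held 3, and the LAMA4 stretch held 0. The share of G and C was 76% upstream of BCAM, 58.4% upstream of LAMB2, 70.4% upstream of LAMB1 and 48.4% upstream of LAMA4, against a median of 58% over all promoters.

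The same windows were searched on both strands for 6 other motifs. These were the cell cycle homology region (TTTGAA), an E2F motif (TTTGGCGC), the CCAAT box (CCAAT), the E-box (CACGTG), a STAT motif (TTCNNNGAA) and an AP-1 motif (TGANTCA). The BCAM window had a match to 0 of the 6, LAMB1 had 1 match to the cell cycle homology region, and LAMB2 had 1 match to the STAT motif. Of all promoters, 13.6% held the cell cycle homology letters and 6.78% the STAT letters. LAMA2, another alpha chain gene with a row but not among the selected names, also had 1 match to the cell cycle homology region. LAMB4, a beta chain gene likewise outside the selected names, had 2 matches to the CCAAT box, which 33% of all promoters held. Of the 6 measured members 5 had a listed promoter.

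**Figure D1:**
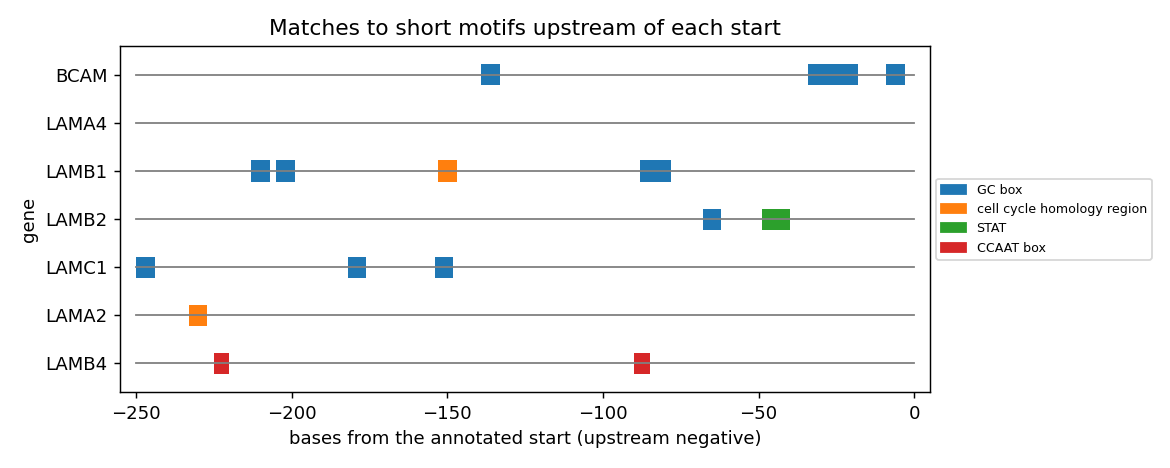
Positions of motif matches in the 250 bases upstream of each annotated start, with distance from the start in bases on the horizontal axis and 1 line per gene. BCAM carries 5 GC boxes, LAMB1 carries 4, LAMC1 carries 3, LAMB2 carries 1 and the LAMA4 line has no match to any of the 7 motifs.

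PD 0332991 arrays had BCAM levels far above those of DMSO arrays. The deposited log2 values of BCAM (transcript cluster TC19000630.hg.1) were 13.54, 13.66 and 13.39 with PD 0332991, against 7.97, 7.68 and 7.43 with DMSO. The groups did not overlap, and all PD 0332991 arrays stood far above all DMSO arrays. The means were 13.53 ± 0.14 with PD 0332991 and 7.69 ± 0.27 with DMSO (SD, n = 3 each), a PD 0332991 minus DMSO difference of 5.83 ± 0.14 (SE) on the deposited log2 scale. By size this was the rank 2 rise among the 22375 genes. All values here are log2 units of that scale and were not converted to ratios of RNA amounts.

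Of the 6 measured members 4 passed the call rule, an adjusted p under 0.05 in limma over all 22375 genes, and all 4 were higher with PD 0332991. Over all genes 38.1% were called in either direction, 19.6% higher and 18.5% lower. The PD 0332991 arrays lay wholly above the DMSO arrays in 5 of the 6 members, against 24.6% of all genes, and 47.5% of all genes had no overlap in either direction. The members' median change was 1.11, beside 0.00 over all genes. Called genes were more frequent among bright genes, 65.6% of those above the median mean level and 10.6% of the rest, and the 4 called members lay above that median.

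**Figure D2:**
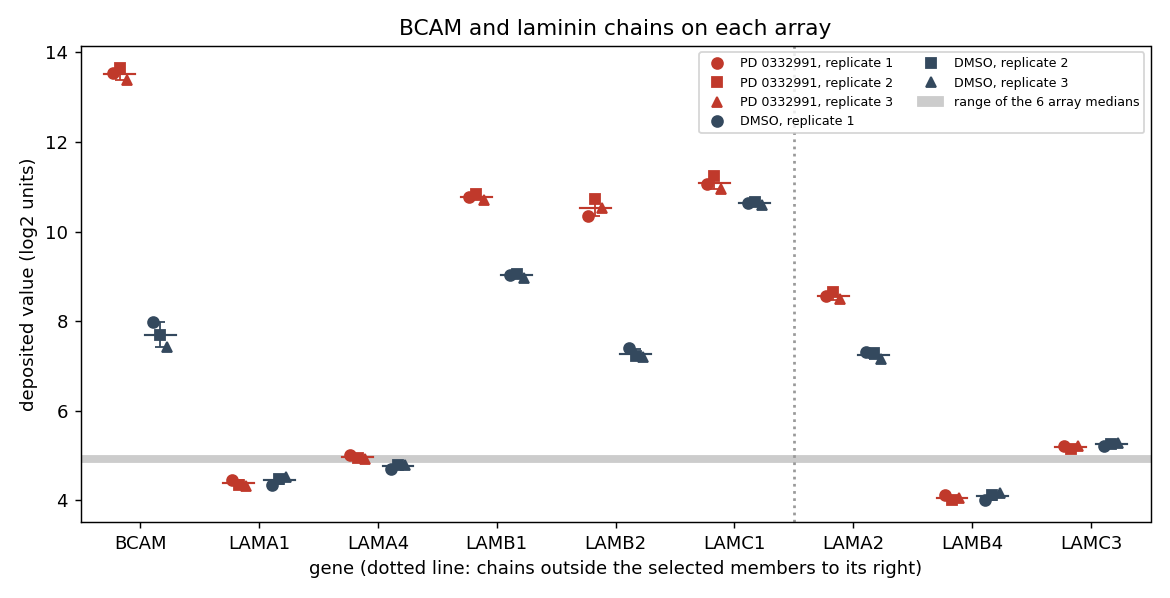
Deposited log2 values of BCAM and 8 laminin chain genes on each array, PD 0332991 in red to the left of DMSO in blue, with horizontal lines and bars for mean and SD (n = 3 each). The 3 PD 0332991 arrays sit above the 3 DMSO arrays in BCAM, LAMB1, LAMB2, LAMC1 and LAMA2, and narrowly in LAMA4. LAMA4 and LAMC3 lie close to the grey band of array medians (4.85 to 4.98), and LAMA1 and LAMB4 lie below it.

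Among the measured beta chain genes, LAMB2 changed most. LAMB2, the beta chain of many mature basement membranes such as those of muscle and the kidney filter, had values of 10.34, 10.73 and 10.53 with PD 0332991, against 7.40, 7.22 and 7.20 with DMSO. The difference was 3.26 ± 0.11 (SE, n = 3 each), with no overlap between the groups. The pseudogene LAMB2P1, annotated beside LAMB2, could share sequence with it, so their probe signals may not be fully separate. It had a PD 0332991 mean of 4.55 and a DMSO mean of 3.65, a change of 0.91, at levels below the array medians.

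LAMB1 encodes the beta chain that many laminins carry early in development. Its values were 10.78, 10.85 and 10.71 with PD 0332991, against 9.03, 9.06 and 8.97 with DMSO. The difference was 1.76 ± 0.07 (SE, n = 3 each), and the arrays of the groups did not overlap. LAMB4, a further beta chain gene with a row but not among the selected names, had a change of -0.04 ± 0.07 (SE) at levels below the median of all 6 arrays.

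The common gamma chain gene changed least among the called members. LAMC1 encodes the gamma chain found in most laminins. Its values were 11.06, 11.24 and 10.96 with PD 0332991, against 10.64, 10.66 and 10.58 with DMSO. The difference was 0.46 ± 0.09 (SE, n = 3 each), small beside those of the beta chains, although the groups did not overlap. LAMC3, a gamma chain gene not among the selected names, had means of 5.18 ± 0.04 with PD 0332991 and 5.25 ± 0.03 with DMSO (SD, n = 3 each). Its change of -0.06 ± 0.06 (SE) was not called (limma adjusted p = 0.539), although its PD 0332991 arrays all lay narrowly below its DMSO arrays.

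The measured alpha chains named in the selection stayed near or below the array medians in both treatments. LAMA1, the alpha chain of the laminin of early embryos, had values of 4.45, 4.35 and 4.32 with PD 0332991, against 4.35, 4.48 and 4.51 with DMSO. These values overlapped and lay below the median of every array, and the difference was -0.07 ± 0.08 (SE, n = 3 each). LAMA4, the alpha chain of vessel and muscle laminins, had values of 5.0, 4.94 and 4.92 with PD 0332991, against 4.70, 4.80 and 4.79 with DMSO. The groups did not overlap, but the difference of 0.19 ± 0.07 (SE) did not pass the call rule. At such levels a signal above background is not established for either gene, and their values do not show that they failed to respond.

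LAMA2, the alpha chain of skeletal muscle and nerve laminins, was the measured alpha chain gene with a called change. It was not among the selected names. Its values were 8.56, 8.66 and 8.48 with PD 0332991, against 7.31, 7.29 and 7.15 with DMSO, with no overlap. It rose by 1.32 ± 0.08 (SE, n = 3 each; limma adjusted p = 5.23e-06). Over all 12 laminin chain genes, 8 were measured, 4 of these rose, 0 fell and 4 did not pass, with a median change of 0.32. That is 50% called, beside 38.1% of all genes, and 3 of the 4 were among the genes selected on these differences. The call rule was thus met by LAMA2, LAMB1, LAMB2 and LAMC1.

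**Figure D3:**
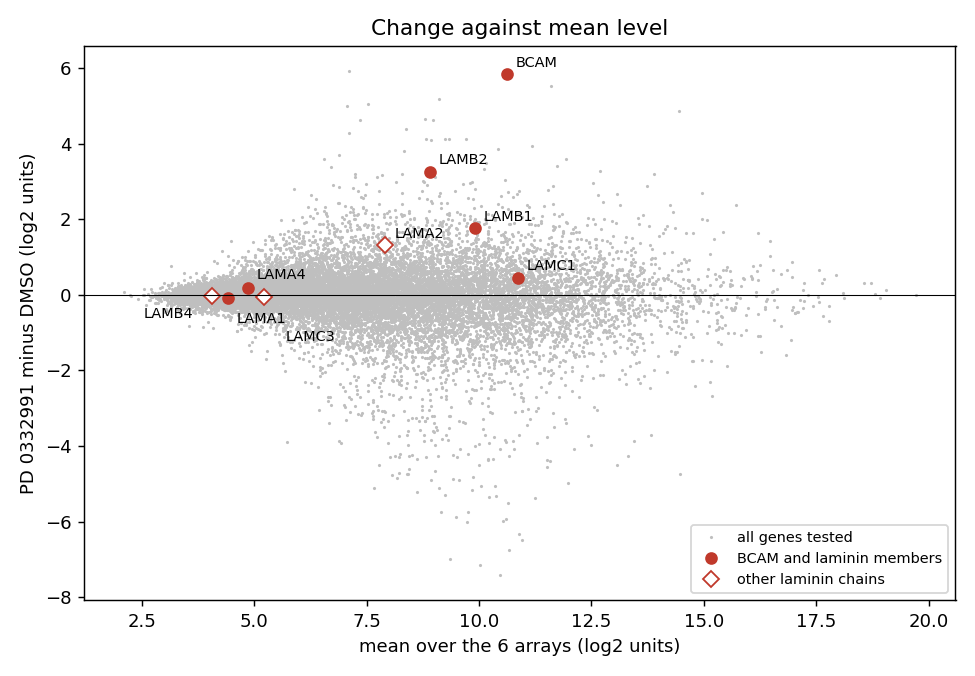
PD 0332991 minus DMSO difference (log2 units, vertical axis) against the mean over the 6 arrays (log2 units, horizontal axis) for all 22375 genes in grey, with BCAM and the measured laminin chain genes marked. BCAM lies near the top of the cloud at 5.83, LAMB2 at 3.26 and LAMB1 at 1.76, while LAMA1, LAMA4, LAMB4 and LAMC3 sit in the narrow dim end around 0.

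Within each treatment a particular array was often the highest, among bright genes at large as well as among the called genes here. PD 0332991 replicate 2 was the highest of its group in BCAM, LAMB1, LAMB2, LAMC1 and LAMA2, which are all 5 of the called genes among BCAM and the chains. It was the highest of its group in 38% of all genes and in 60.7% of genes above the median mean level. DMSO replicate 1 was the highest of its group in 3 of those 5 genes, and in 55.3% of genes above the median mean level. In LAMB1 and LAMC1 the highest DMSO array was replicate 2. Without both arrays all 4 called members kept their calls. The widest spread within a group was that of BCAM with DMSO, 0.27 (SD), small beside its difference of 5.83.

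**Figure D4:**
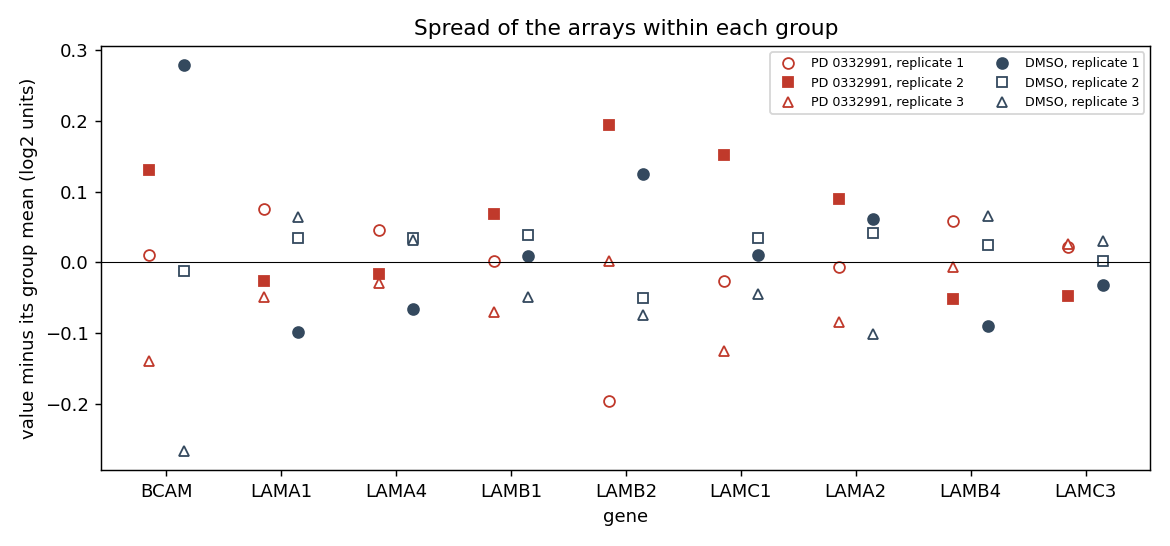
Each array's value minus the mean of its own group (log2 units) for BCAM and the laminin chain genes, PD 0332991 in red and DMSO in blue, with PD 0332991 replicate 2 and DMSO replicate 1 filled. PD 0332991 replicate 2 lies highest of its group in BCAM, LAMB1, LAMB2, LAMC1 and LAMA2, and not in the dim chains.

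The values of BCAM over the 6 arrays were most like those of SLC25A29, STAT3, ITPKC, ATP6AP1 and GGCX. These had the highest Pearson r with BCAM, from 0.9998 to 0.9999. They were drawn from 2225 other called genes with a change of at least 1 in either direction. The r rests mainly on the difference between the treatments, since 614 of the 2225 genes had an r over 0.99. Genes that fell count among the 2225 but cannot reach such an r, so the share among genes that rose was larger. STAT3, a transcription factor of cytokine signalling, had values of 12.62, 12.65 and 12.57 with PD 0332991, against 10.34, 10.26 and 10.19 with DMSO. GGCX, the carboxylase of vitamin K-dependent proteins, changed by 1.44, and ATP6AP1, an accessory subunit of the vacuolar proton pump, changed by 2.37.

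Called neighbours of BCAM and of LAMB1 went both ways, while those of LAMB2 only rose. Of the 3 nearest measured protein-coding genes on either side of BCAM in GRCh38.p14, 3 rose, 1 fell and 2 did not pass by limma. The neighbours named here were chosen after their values were seen. APOE, the apolipoprotein E gene, rose by 1.87 ± 0.12 (SE, n = 3 each; limma adjusted p = 6.13e-06), and TOMM40, a mitochondrial import pore gene, fell by 1.63 ± 0.07 (limma adjusted p = 1.03e-06). NECTIN2, the gene next to BCAM and itself an adhesion receptor gene, rose by 0.82 ± 0.12 (limma adjusted p = 0.000718). Around LAMB2 2 of 6 neighbours rose and 0 fell, with changes from -0.25 to 0.49, and around LAMB1 2 rose and 2 fell, from -0.48 to 1.19. Over all genes 38.1% were called, 19.6% higher and 18.5% lower. With 6 neighbours per gene, these counts cannot be told apart from those shares.

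Most measured laminin receptor genes changed with PD 0332991, and they did not move one way. Of 14 listed genes 12 were measured, of which 8 rose, 2 fell and 2 did not pass, with a median change of 0.57. That is 83.3% called, beside 38.1% of all genes and 65.6% of those above the median mean level, where all 10 called receptors lay. The laminin-binding integrin alpha chains listed here pair with the beta chain of ITGB1 or, for ITGA6, also with that of ITGB4 in hemidesmosomes.

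ITGA6, the alpha chain of the main laminin-binding integrins, had values of 12.43, 12.56 and 12.36 with PD 0332991, against 13.88, 13.84 and 13.76 with DMSO. It fell by 1.38 ± 0.08 (SE, n = 3 each; limma adjusted p = 3.81e-06). Its partner ITGB4 had values of 7.42, 7.49 and 7.31 with PD 0332991, against 6.29, 6.28 and 6.30 with DMSO, and rose by 1.12 ± 0.07 (adjusted p = 7.21e-06). The groups did not overlap in either gene, and the partners moved in opposite directions. ITGA3, another laminin-binding alpha chain, rose by 0.49 ± 0.07 (limma adjusted p = 0.000781).

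ITGB1, the beta chain shared by most matrix-binding integrins, averaged 15.82 ± 0.01 with PD 0332991 and 15.15 ± 0.07 with DMSO (SD, n = 3 each). It rose by 0.66 ± 0.07 (SE; limma adjusted p = 8.75e-05) in its brightest probe set, but its other 2 probe sets had changes of -0.19 and -0.29. Those 2 were far dimmer, with values of 6.22 to 6.58 and of 3.52 to 4.25. The mean of the ITGB1 probe sets, which weighs them alike, changed by 0.06 and was no longer called (limma adjusted p = 0.681). The tetraspanin gene CD151, whose product binds laminin-binding integrins, rose by 0.95 ± 0.07 (limma adjusted p = 1.32e-05).

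SDC4, a heparan sulphate proteoglycan of focal adhesions, had values of 13.01 on each of the 3 PD 0332991 arrays, against 11.76, 11.43 and 11.39 with DMSO. It rose by 1.49 ± 0.10 (SE, n = 3 each; limma adjusted p = 1.15e-05), the largest change among the measured laminin receptors. SDC2, a related proteoglycan, rose by 0.73 ± 0.08 (limma adjusted p = 0.00018). SDC1 was the other receptor that fell besides ITGA6, with a change of -0.45 ± 0.07 (adjusted p = 0.00121), and was named after its value was seen. The dystroglycan gene DAG1 was not measured as a single gene.

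**Figure D5:**
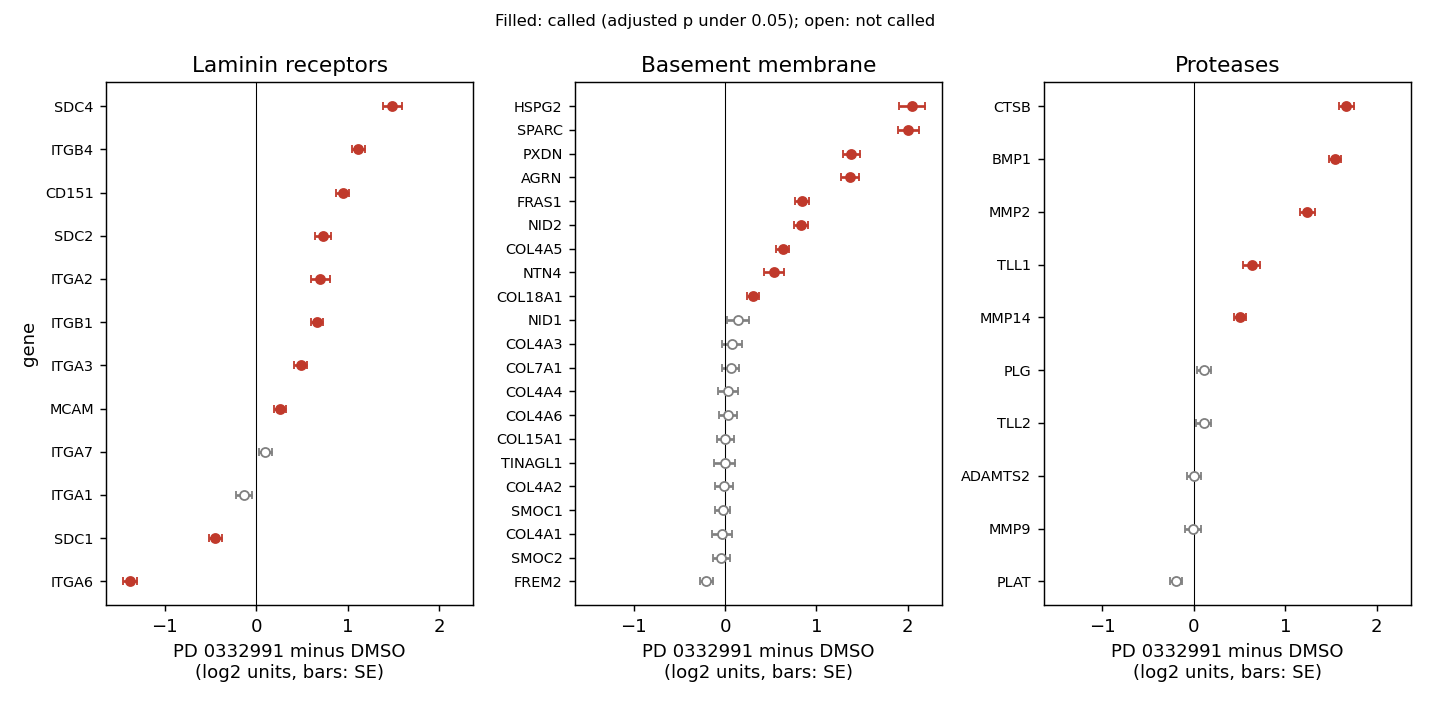
PD 0332991 minus DMSO differences (log2 units, points) with SE bars for measured laminin receptors, basement membrane genes and proteases, filled where called by limma. SDC4 leads the receptors at 1.49 and ITGA6 is lowest at -1.38, HSPG2 and SPARC lead the basement membrane genes at 2.05 and 2.00, and CTSB and BMP1 lead the proteases at 1.67 and 1.54.

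Among the matrix partners of laminin, the share of called genes was near that of all genes, and the linkers perlecan and agrin were among those that rose. Of 22 listed basement membrane genes 21 were measured, of which 9 rose, 0 fell and 12 did not pass, with a median change of 0.08. That is 42.9% called, beside 38.1% of all genes. HSPG2, the perlecan gene, had values of 8.87, 9.32 and 8.94 with PD 0332991, against 7.16, 7.03 and 6.79 with DMSO. It rose by 2.05 ± 0.14 (SE, n = 3 each; limma adjusted p = 1.01e-05), and PD 0332991 replicate 2 was again the highest array.

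AGRN, the agrin gene, had values of 7.97, 8.26 and 7.96 with PD 0332991, against 6.77, 6.69 and 6.64 with DMSO, and rose by 1.37 ± 0.10 (SE, n = 3 each; limma adjusted p = 1.21e-05). NID1, the nidogen gene whose product bridges the gamma chain of LAMC1 to collagen IV, had values of 7.84, 7.98 and 7.81 with PD 0332991, against 7.99, 7.69 and 7.52 with DMSO. These overlapped, with a change of 0.14 ± 0.12 (SE; limma adjusted p = 0.445).

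SPARC, a collagen-binding matrix protein gene, rose by 2.00 ± 0.12 (SE, n = 3 each; limma adjusted p = 4.24e-06), and PXDN, the peroxidase that crosslinks collagen IV, rose by 1.38 ± 0.09 (adjusted p = 8.54e-06). FRAS1, which holds the embryonic epidermis to its basement membrane, rose by 0.84 ± 0.08 (adjusted p = 4.82e-05) from a DMSO mean of 4.70, near or below the array medians. The main collagen IV genes COL4A1 and COL4A2, named after their values were seen, had changes of -0.03 and -0.01. Their levels lay below the array medians, where signal above background is not established.

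Protease genes that act on laminins or other matrix proteins rose in 5 of 10 measured cases, 0 fell, and the median change was 0.30. That is 50% called, beside 38.1% of all genes. CTSB, the lysosomal protease cathepsin B, rose by 1.67 ± 0.08 (SE, n = 3 each; limma adjusted p = 1.34e-06). BMP1, a procollagen C-proteinase that also trims laminin chains, had values of 8.03, 8.03 and 7.98 with PD 0332991, against 6.42, 6.52 and 6.47 with DMSO. It rose by 1.54 ± 0.07 (limma adjusted p = 8.18e-07), with tight values in both groups. The gelatinase gene MMP2 rose by 1.24 (adjusted p = 8.21e-06), the BMP1 relative TLL1 by 0.63 (adjusted p = 0.000622) and the membrane-bound protease gene MMP14 by 0.50 (adjusted p = 0.000423). MMP2 and TLL1 rose from DMSO means of 4.96 and 4.46, near or below the array medians.

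Enzymes that build the laminin-binding sugar of dystroglycan went both ways. Of 17 listed genes 12 were measured, of which 2 rose, 3 fell and 7 did not pass, with a median change of -0.10. That is 41.7% called, near the 38.1% of all genes. RXYLT1, a ribitol xylosyltransferase of that sugar chain, fell by 0.87 ± 0.07 (SE, n = 3 each; limma adjusted p = 1.77e-05). The first mannose is added by the POMT1 and POMT2 enzymes, whose genes fell by 0.42 (adjusted p = 0.00351) and fell by 0.57 (adjusted p = 0.00117). DOLK, the kinase that makes dolichol phosphate, rose by 0.83 (adjusted p = 0.000147). B4GAT1, a glucuronyltransferase of the chain, rose by 0.59 (limma adjusted p = 0.0238). That call was lost without PD 0332991 replicate 2 (0.0612), PD 0332991 replicate 3 (0.0683), DMSO replicate 2 (0.0816) or DMSO replicate 3 (0.0583). It was also lost with each array centred on its median (0.0508), adjusted over all transcript clusters (0.0619) and with the replicate number as a block (0.0546).

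Among proteins that resemble or hold BCAM, the spectrin genes had the largest changes. Of 12 listed genes 10 were measured, of which 5 rose, 1 fell and 4 did not pass, with a median change of 0.17. That is 60% called, beside 38.1% of all genes and 65.6% of those above the median mean level. The spectrin genes SPTBN1 and SPTAN1, whose products form the membrane skeleton that the cytoplasmic tail of BCAM binds in red cells, rose by 1.14 ± 0.10 and 1.02 ± 0.09 (SE, n = 3 each), with limma adjusted p-values of 3.22e-05 and 5.36e-05. ALCAM, an immunoglobulin adhesion molecule gene with the same domain order as BCAM, rose by 0.39 (adjusted p = 0.00185). CD47, a membrane protein with an immunoglobulin domain, rose by 0.79 (adjusted p = 0.000165). The hyaluronan receptor gene CD44 fell by 0.63 ± 0.08 (adjusted p = 0.000373), and by 1.01 as the mean of its 2 probe sets.

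The median of each array lay between 4.85 and 4.98. MKI67, the gene of the proliferation marker Ki-67, averaged 6.75 ± 0.03 with PD 0332991 and 14.17 ± 0.24 with DMSO (SD, n = 3 each). The simple epithelial keratin genes KRT8 and KRT18 were bright, with PD 0332991 means of 14.83 and 14.02 and DMSO means of 14.03 and 14.06. The other measured epithelial and squamous markers were far lower. KRT7 averaged 6.2 with PD 0332991 and 6.1 with DMSO, and KRT19 averaged 4.54 and 4.62. The epithelial adhesion genes EPCAM and CDH1 stayed near or below the array medians. KRT8, which rose by 0.79, was the only one of the 10 measured markers called, 10% beside 38.1% of all genes. The mean of the 7 endothelial marker genes was 4.38 to 4.55 with PD 0332991 and 4.37 to 4.53 with DMSO, and that of the 8 measured fibroblast and muscle markers was 4.58 to 4.75 with PD 0332991 and 4.55 to 4.73 with DMSO. Of these 15 genes 1 rose, PECAM1 by 0.40, and 1 fell, ACTA2 by 0.29. PECAM1 lay below the array medians on every array, where signal above background is not established. The 6 measured blood and erythroid markers had means of 5.63 to 5.79 with PD 0332991 and 5.98 to 6.17 with DMSO. CD68, a lysosomal protein gene used as a macrophage marker, fell by 2.30, and the red cell genes HBB and KLF1 were not called.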

How the data were processed

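Total RNA of 6 H1299 samples was measured on 1 array each. The authors deposited log2 values for 65535 transcript clusters, made in Affymetrix Expression Console per the submitters' processing notes. Its version and its settings for background and normalization are not stated in those sources, and the log2 base was inferred from the range of the values. The table gives no detection flags or scan dates.

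Gene names came from the platform annotation: 22685 clusters had 1 symbol, 1385 had several and 41465 were not listed with one. For 296 genes with several clusters the one with the highest mean was used, which left 22375 genes. PD 0332991 was compared with DMSO in R 4.3.3 with limma 3.58.1 (lmFit, eBayes, two-sided, 4 residual degrees of freedom), without further scaling or filter, and with Benjamini-Hochberg adjustment over all genes. The call rule was an adjusted p under 0.05. The comparison was tested on simulated data. The number of arrays limits the precision, with a median SE of 0.0875.

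The members and lists were chosen with earlier results of these data known. Named were the members, the other laminin chains, up to 5 called genes per list with the largest changes, fixed receptor and linker genes, MKI67, and the 5 genes most like BCAM. LAMB2P1, the neighbours, SDC1, NID2, COL4A1, COL4A2 and the marker genes were named after their values were seen. The alternatives covered normalization, dim genes, probe sets, the adjustment, the variance model, weights, the replicate block and left-out arrays. RefSeq promoters were matched by symbol and neighbours taken from RefSeq gene order.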

Additional observations from a re-analysis of the deposited data

How the results depend on the processing

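Across 16 alternatives BCAM kept its call with a change of 5.70 to 5.97, LAMB2 with 3.16 to 3.36, LAMB1 with 1.70 to 1.85 and LAMC1 with 0.38 to 0.57. LAMA1 stayed uncalled in the 15 that kept it. LAMA4 was called after quantile normalization (change 0.17) and with array weights (0.16), which brought the called members to 5. Of the basement membrane genes 5 were called among genes above the median level, since that filter left fewer genes tested. All other list counts stayed within 1.5 times of their first value. Genes called over the whole table numbered 6967 to 10296. ITGB1 lost its call in 1 alternative and B4GAT1 in 7, as given above. The labels do not say whether replicate numbers pair the arrays. Deviations of same-numbered arrays had correlations of -0.33, -0.15 and 0.10. With 3 arrays per group, each centred on its group mean, these cannot decide the question. With the replicate number as a block 7708 genes and 4 members were called, and BCAM changed by 5.83. Dim chains were not shown to be above background.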
